A study of Mus musculus with 6 samples.

Results

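The pyruvate dehydrogenase complex core subunits are the 5 genes Pdha1, Pdhb, Dlat, Dld and Pdhx, taken with every probe set that the array's annotation gives to 1 of them and to no other gene. They held 68 of 269751 probe sets, namely 9 for Pdha1, 11 for Pdhb, 19 for Dlat, 16 for Dld and 13 for Pdhx. All 5 genes were among the 13891 that were bright enough to be tested, out of 23152 with a single name. The choice used gene names and no measured value. RNA came from regulatory T cells (Tregs), sorted as CD4-positive cells with high CD25 from the spleens of untreated male mice aged 45 weeks. In the KO group the mice were DJ-1-/- and so lacked Park7, the gene of the DJ-1 protein, and in the WT group they were DJ-1+/+ littermates. Each group had 3 mice, with 1 Affymetrix Mouse Gene 2.0 ST array per mouse, and the labels name no deletion restricted to 1 cell type. The series title names pyruvate dehydrogenase activity, and the comparison of KO with WT arrays asked whether the transcripts of the enzyme's own subunits differed.

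The complex sits in the mitochondrial matrix and turns pyruvate, the end product of glycolysis, into acetyl-CoA for the tricarboxylic acid cycle. E1 removes carbon dioxide from pyruvate, E2 passes the acetyl group to coenzyme A on a lipoyl arm, and E3 reoxidises that arm. Kinases of the Pdk family phosphorylate the E1 alpha subunit and switch the complex off, and Pdp phosphatases switch it on. In Tregs, which are known to rely on mitochondrial oxidation more than activated conventional T cells do, this step links glycolysis to respiration. An array measures transcripts, so subunit protein, its phosphorylation and the activity of the enzyme were not measured here.

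Pdhb, Dld and Pdhx were low together in 1 KO array, and the bases before their transcription start sites are shown for that reason. The genes were chosen after their values were seen, and that array, KO replicate 1, was the lowest for 38.2% of tested genes. The bases shown are reference sequence, the same for every array, and their part in the low values was not tested. The windows are the 250 bases before the start in RefSeq's GRCm38.p6 table, which held all 5 subunits, and capitals mark each match to the letters GGGCGG, a GC box, or to the letters CCAAT, a box named after them, on either strand.
Pdhb, chr14:8172993-8173242, minus strand: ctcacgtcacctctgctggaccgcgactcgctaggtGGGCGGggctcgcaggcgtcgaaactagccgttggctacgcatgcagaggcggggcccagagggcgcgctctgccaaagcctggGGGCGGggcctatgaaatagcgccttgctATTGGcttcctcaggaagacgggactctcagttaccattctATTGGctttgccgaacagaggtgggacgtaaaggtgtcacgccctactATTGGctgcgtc
Dld, chr12:31351472-31351721, minus strand: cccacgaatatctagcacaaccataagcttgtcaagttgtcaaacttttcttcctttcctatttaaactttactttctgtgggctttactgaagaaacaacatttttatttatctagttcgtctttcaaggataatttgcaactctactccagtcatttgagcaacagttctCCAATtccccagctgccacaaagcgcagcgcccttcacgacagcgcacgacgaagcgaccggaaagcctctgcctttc
Pdhx, chr2:103073514-103073763, minus strand: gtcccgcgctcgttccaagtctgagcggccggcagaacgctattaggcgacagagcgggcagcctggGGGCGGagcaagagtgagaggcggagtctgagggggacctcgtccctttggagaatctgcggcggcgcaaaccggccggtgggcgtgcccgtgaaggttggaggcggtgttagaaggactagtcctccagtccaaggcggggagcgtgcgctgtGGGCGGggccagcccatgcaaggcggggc
The Pdhb window held 2 GC boxes and 3 CCAAT boxes, the Dld window 1 CCAAT box, and the Pdhx window 2 GC boxes. Dlat had 1 GC box and Pdha1 had no match to either. No window of the 5 matched TCAAGGTCA, the estrogen-related receptor type of site. No 2 matches overlapped. Over 32851 windows of the same length, 32.7% held the GC box letters, 33.8% the CCAAT box letters and 0.387% the estrogen-related receptor type. Dld had the lowest share of G and C, 43.6%, against 61.6% to 68.4% for the other 4 subunits.

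The genotype and the sort were checked first. Park7 was at 6.06, 5.96 and 5.71 log2 units in KO replicates 1 to 3, against 9.48, 9.27 and 9.70 in WT replicates 1 to 3, on the log2(intensity + 16) scale used throughout. All 7 T cell and Treg markers (Cd3e, Cd4, Foxp3, Il2ra, Ctla4, Ikzf2, Tnfrsf18) were bright, with means of 11.04 to 12.72 in KO and 11.11 to 12.88 in WT. Of 24 markers of B, CD8 T, NK, myeloid, dendritic and erythroid cells, 20 had probe sets, 13 lay above the test's floor of 5.90 and 0 passed the test (0.274% of all tested genes did). The brightest of them, the B cell gene Cd79b, averaged 9.40 in KO and 9.57 in WT. The NK markers ran opposite ways without overlap, Ncr1 lower in KO (-0.85, limma adjusted p = 0.212) and Klrb1c higher (0.28, 0.552). Among the tested macrophage markers, Csf1r (-0.54) and C1qc (-0.47) were lower in KO without overlap, and C1qa and C1qb overlapped. Summed intensities of the macrophage and monocyte list were 263 to 299 in KO arrays, against 319 to 483 in WT arrays. Those of the CD8 list were 361 to 436 against 458 to 505, with Cd8b1 lower in KO (-0.30, no overlap) and Cd8a overlapping (0.03). Those of the T cell and Treg list were 29940 to 31264 against 31946 to 32281, and its members did not run one way. Cd3e (-0.19) and Ikzf2 (-0.20) were lower in KO without overlap, and Foxp3 was higher without overlap (0.06). Cd4, Il2ra, Ctla4 and Tnfrsf18 overlapped. Summed intensities of the B cell, NK, neutrophil, erythroid and dendritic cell lists overlapped between the groups. Of all tested genes, 17.4% did not overlap between the groups, 11.3% being lower in KO. The part of these marker lists in the subunit values was not tested. In sorted bulk RNA, fewer cells of a type and less RNA per cell cannot be told apart. KO replicate 1 stood apart from the other 5 arrays. Its median intensity over all probe sets was 88.6, against 95.3 to 100.2 elsewhere, it lay alone at one end of the first principal component (45.6% of the variance), and it was the lowest of the 6 arrays for 38.2% of tested genes. The difference of each subunit, and of each subunit probe set whose difference is given, is therefore given with and without that array.

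None of the 5 subunits passed an adjusted p of 0.05 in limma, where 0.274% of the 13891 tested genes passed, and none had an unadjusted p under 0.05, where 10.7% of tested genes had one. Of the differences (KO minus WT), 4 were negative and 1 positive, with a median of -0.22, against a median of -0.05 over all tested genes, 59.7% of which were negative. Without KO replicate 1 the median over the 5 subunits was 0.06 and that over all tested genes -0.0082. In none of the 5 did the 3 KO arrays all lie on one side of the 3 WT arrays, which was the case for 17.4% of tested genes.

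**Figure D1:**
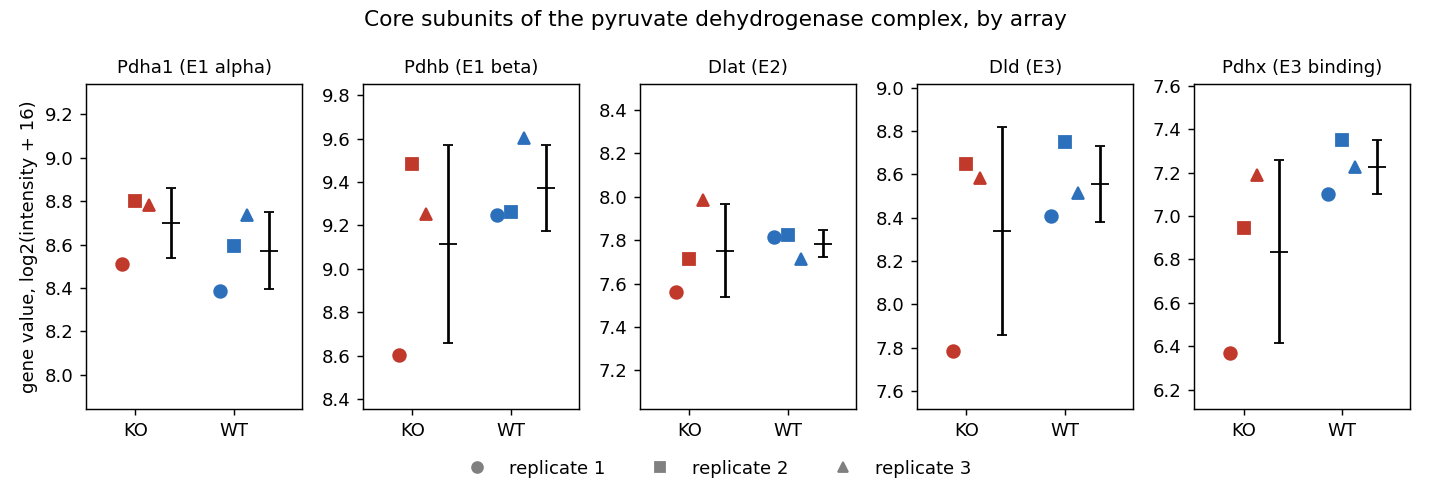
Gene value of each core subunit on the log2(intensity + 16) scale (y axis, each panel spanning the same 1.5 units) in KO and WT arrays (x axis). Symbols are single arrays, and the black bar is the group mean with its SD (n = 3). KO replicate 1 is the lowest array for Pdhb, Dlat, Dld and Pdhx, and the groups overlap in every panel.

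E1 is made of alpha and beta chains, and its subunits lay on opposite sides of zero. Pdha1, an X-linked gene, encodes the alpha chain that carries the regulatory phosphorylation sites. It was at 8.51, 8.80 and 8.78 log2 units in KO replicates 1 to 3, against 8.38, 8.59 and 8.74 in WT replicates 1 to 3. KO replicates 2 and 3 lay above every WT array, and KO replicate 1 lay inside the WT range. The difference was 0.13 (SE 0.15, 95% confidence interval -0.22 to 0.47, limma adjusted p = 0.799), which as a KO to WT ratio spans 0.860 to 1.39. Without KO replicate 1 it was 0.22, with an interval of -0.11 to 0.55, and without WT replicate 1 it was 0.032.

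Pdhb encodes the beta chain, which with the alpha chain binds the thiamine pyrophosphate cofactor. Its values were 8.60, 9.48 and 9.25 in KO replicates 1 to 3, against 9.25, 9.26 and 9.60 in WT replicates 1 to 3. KO replicate 1 was the one array outside the WT range, and the SD was 0.46 in KO and 0.20 in WT. The group means, 9.11 in KO and 9.37 in WT, differed by -0.26 (SE 0.22, interval -0.76 to 0.24, limma adjusted p = 0.716), so the KO to WT ratio spans 0.591 to 1.18. Without KO replicate 1 the difference was -0.0035, with an interval of -0.36 to 0.36.

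Dlat, the acetyltransferase E2, forms the core on which the other components assemble. Its array values were 7.56, 7.71 and 7.98 in KO and 7.82, 7.82 and 7.71 in WT, each in the order of replicates 1 to 3. The KO arrays lay on both sides of the narrow WT range. The difference was -0.03 (SE 0.15, interval -0.37 to 0.30, limma adjusted p = 0.955), and the ratio spans 0.775 to 1.23. Its sign was not stable: it was 0.065 without KO replicate 1, 0.019 with quantile normalization and 0.0031 with median centring, and it moved the other way, to -0.18, with bright probe sets only.

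Dld, the flavoprotein E3, is shared with the 2-oxoglutarate and branched-chain 2-oxoacid dehydrogenases and the glycine cleavage system. It was at 7.79, 8.65 and 8.58 in KO replicates 1 to 3, against 8.41, 8.75 and 8.51 in WT replicates 1 to 3. KO replicates 2 and 3 lay inside the WT range and KO replicate 1 below it. The difference of -0.22 (SE 0.23, interval -0.73 to 0.29, limma adjusted p = 0.764) turned to 0.058 without KO replicate 1, with an interval of -0.27 to 0.39.

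Pdhx, the E3-binding protein that tethers E3 to the E2 core, had the largest difference of the 5 with all arrays and the median of probe sets. That of Pdha1 was larger without KO replicate 1. With the mean of probe sets those of Pdhb and Dld were larger, and with bright probe sets only that of Pdhb was. The Pdhx values were 6.37, 6.95 and 7.19 in KO replicates 1 to 3, against 7.10, 7.35 and 7.23 in WT replicates 1 to 3. KO replicates 1 and 2 lay below every WT array, and KO replicate 3 lay inside the WT range. The means were 6.84 ± 0.42 in KO and 7.23 ± 0.12 in WT (SD, n = 3 each). They differed by -0.39 (SE 0.21, interval -0.85 to 0.07, limma adjusted p = 0.552), a ratio between 0.554 and 1.05. Without KO replicate 1 the difference was -0.16, with an interval of -0.49 to 0.17. With the mean of its probe sets in place of their median it was -0.11, against -0.26 for Pdhb and -0.17 for Dld. With bright probe sets only it was -0.21, against -0.26 for Pdhb.

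**Figure D2:**
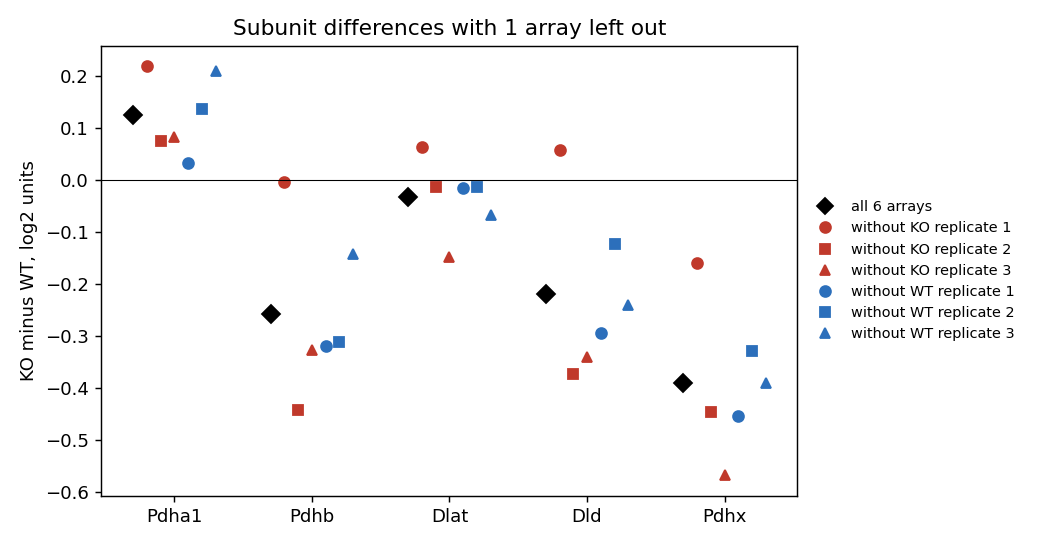
KO minus WT difference of each core subunit in log2 units (y axis) with all 6 arrays (black diamonds) and with each array left out in turn (coloured symbols). Leaving out KO replicate 1 gives -0.0035 for Pdhb and turns Dlat and Dld positive, and Pdha1 is positive and Pdhx negative in all 7 fits.

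The deficit in KO replicate 1 was unequal among the subunits. Set against the mean of the other 5 arrays, that array was lower by similar amounts for Pdhb (-0.77), Dld (-0.79) and Pdhx (-0.79), and the median over all tested genes was -0.11. Of all tested genes, 7.13% lay as far below as Pdhb in that array, 6.34% as far as Dld and 6.37% as far as Pdhx. Dlat (-0.25) and Pdha1 (-0.15) were closer to the median gene, with 36.0% and 45.9% of tested genes as far below or further.

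Patterns over the 6 arrays were compared by the root mean square difference between log2 values, after each gene's own mean was taken off. Among the 10 pairs of subunits, Dld and Pdhx were the most alike (0.14 log2 units), and Pdha1 and Pdhx the least alike (0.31). Outside the complex, the tested genes closest to Pdhb were Fam199x (0.036), Dll1 (0.044) and Trim37 (0.056), and those closest to Pdha1 were Ftsj1 (0.019), Herc2 (0.020) and Atp10a (0.030). For Dlat they were Olfr211 (0.035), Kcnh4 (0.039) and Ttc14 (0.041), for Dld Blm (0.053), Txnl1 (0.054) and Usp9x (0.054), and for Pdhx Psmd12 (0.022), Nom1 (0.036) and Rab14 (0.047). These are descriptions over 6 arrays that include KO replicate 1. The closest genes are the smallest distances in a search over the 13891 tested genes, predicted and non-coding names left out. Their distances therefore cannot be set against those of the 10 subunit pairs, which were not searched for.

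The exon-level probe sets were then tested one by one. Of the 68 probe sets 0 passed when all 269751 were tested with limma (smallest adjusted p 0.619), where 0.00111% of all probe sets passed. At an unadjusted p of 0.05 there was 1, where 7.59% of all probe sets had such a p. KO and WT arrays did not overlap in 5 of the 68 (7.35%), 2 lower and 3 higher in KO. Of all probe sets with a single name 14.0% did not overlap, 7.95% lower and 6.03% higher in KO. Probe sets of a gene read the same transcripts and are not replicates.

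Pdha1 held the one probe set with an unadjusted p under 0.05. Its probe set 17545743 was at 7.72, 7.76 and 7.44 in KO replicates 1 to 3, against 7.38, 7.0 and 6.69 in WT replicates 1 to 3, so every KO array lay above every WT array. The difference was 0.62 (SE 0.22, unadjusted p = 0.030 and adjusted p = 0.619 in limma), and 0.58 without KO replicate 1. Probe set 17545755, named after its values were seen, also did not overlap, with a difference of 0.71, and 0.49 without KO replicate 1. The other 7 Pdha1 probe sets overlapped between groups, and over all 9 there were 4 negative and 5 positive differences, with a median of 0.04 and a range of -0.49 to 0.71. Of the 9, 3 were negative without KO replicate 1.

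Pdhb differences ran one way more often, with 9 of 11 negative, a median of -0.22 and a range of -0.56 to 0.06. The probe set with the smallest p, 17303409, was at 8.75, 9.54 and 9.54 in KO replicates 1 to 3 and at 9.79, 9.88 and 9.75 in WT replicates 1 to 3, with no overlap (-0.53, SE 0.25, limma adjusted p = 0.687). Without KO replicate 1 that difference was -0.27, and 6 of the 11 differences were negative.

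Dld likewise had 13 of 16 negative differences (median -0.18, range -0.57 to 0.23), and 6 of 16 without KO replicate 1. Its probe set with the smallest p, 17280512, was dim, at 5.06, 5.58 and 4.72 in KO against 5.16, 6.07 and 5.84 in WT (-0.57, SE 0.32, limma adjusted p = 0.727, and -0.54 without KO replicate 1). No Dld probe set separated the groups.

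Dlat had 11 negative and 8 positive differences, a median of -0.03 and the widest range of the 5 subunits, -0.44 to 1.06. The upper end was probe set 17526871, at 7.24, 6.47 and 7.43 in KO against 5.43, 7.08 and 5.46 in WT, where WT replicate 2 lay among the KO arrays (limma adjusted p = 0.697). Its difference was 1.06 with all arrays and 0.96 without KO replicate 1, where 13 of the 19 differences were negative. None of its 19 probe sets separated the groups.

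Pdhx had 8 negative and 5 positive differences, with a median of -0.16 and a range of -0.55 to 0.47. Its brightest probe set, 17388761, which also had the smallest p, ran against the gene's median. It was at 9.50, 9.67 and 9.73 in KO replicates 1 to 3, against 9.35, 9.36 and 9.38 in WT replicates 1 to 3 (0.27, SE 0.13, limma adjusted p = 0.691), with no overlap, and the difference was 0.34 without KO replicate 1. Probe set 17388758, named after its values were seen, did not overlap in the other direction (-0.33, and -0.45 without KO replicate 1). Without that array 8 of the 13 differences were negative.

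**Figure D3:**
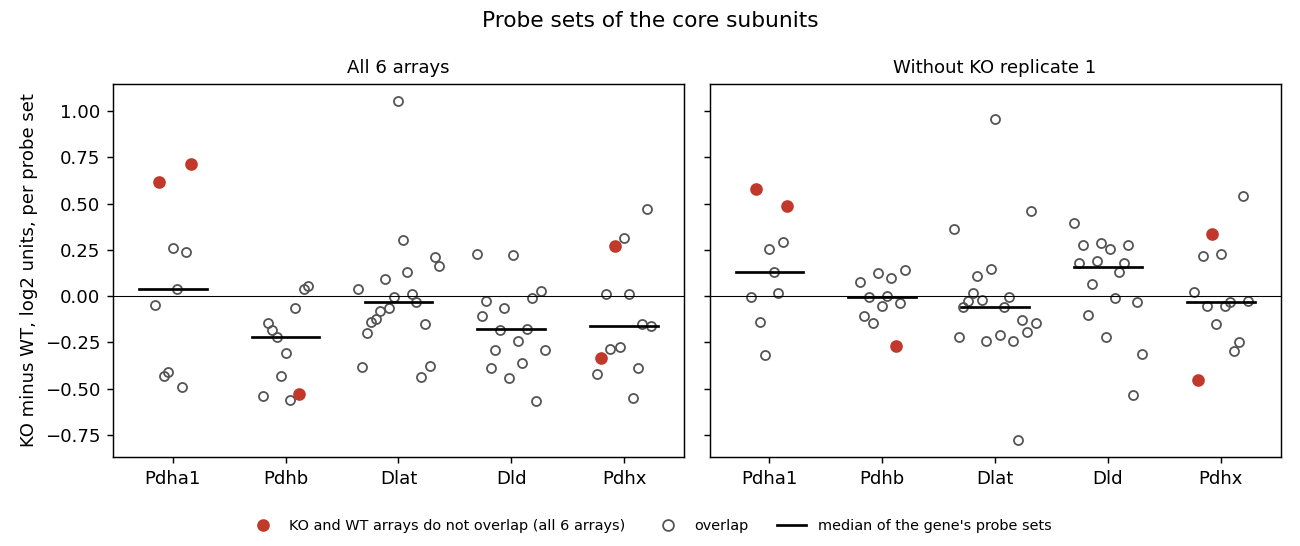
KO minus WT difference in log2 units (y axis) of each of the 68 probe sets, by gene (x axis), with all 6 arrays on the left and without KO replicate 1 on the right. Filled points are the 5 probe sets whose KO and WT arrays do not overlap over all 6 arrays, and black lines are medians. The Pdhb and Dld medians are -0.22 and -0.18 on the left and lie near or above zero on the right.

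KO replicate 1 was the lowest of the 6 arrays in 33 of the 68 subunit probe sets (48.5%), against 26.8% of all probe sets with a single name. That 26.8% also covers probe sets of genes too dim to be tested. By gene value, KO replicate 1 was the lowest array for 38.2% of tested genes. The probe sets lowest in that array were 11 of 16 for Dld, 7 of 11 for Pdhb, 7 of 13 for Pdhx, 4 of 9 for Pdha1 and 4 of 19 for Dlat. The deficit also varied along single genes, as the probe sets named next show, which were chosen after their values were seen. Pdhb probe set 17303401 deviated by -1.81 log2 units in KO replicate 1 from the mean of the other 5 arrays, and probe set 17303407 deviated by -1.69. The brightest Pdhb probe set, 17303408, deviated by -0.42, and 17303410 by 0.20. For Pdhx the lowest deviation was -1.57 (17388766) and for Dld -1.41 (17280509). In Dlat one dim probe set, 17526872, deviated by 1.41, with KO replicates 1 and 3 at 6.79 and 6.29 and KO replicate 2 at 4.21.

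**Figure D4:**
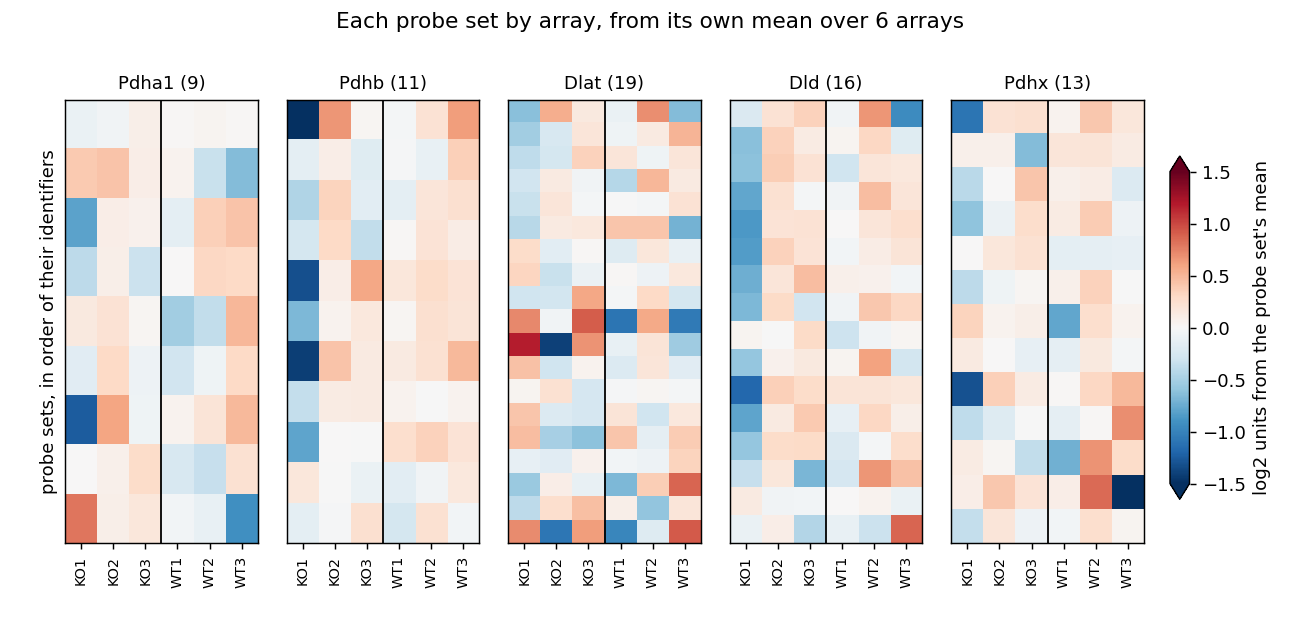
Each of the 68 probe sets (rows, in order of their identifiers, number per gene in brackets) by array (columns, KO left of the line, WT right of it), coloured by its log2 difference from its own mean over the 6 arrays; values past 1.5 units share the end colours. KO replicate 1 lies below the mean of the other 5 arrays in 14 of 16 Dld rows, 10 of 11 Pdhb rows, 7 of 13 Pdhx rows, 5 of 9 Pdha1 rows and 10 of 19 Dlat rows.

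The genes around the complex were taken from lists of its regulators, cofactor suppliers, substrate carriers and sister enzymes. Of 36 listed genes 29 were tested and 0 passed in limma, 17 negative and 12 positive, with a median of -0.06 (-0.05 over all tested genes). At an unadjusted p of 0.05 there was 1 of 29, a smaller share than the 10.7% of all tested genes. KO and WT arrays did not overlap in 3 of the 29, all lower in KO, where 11.3% of tested genes did so in that direction.

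That 1 gene was Pdk3, an E1 kinase, at 8.06, 8.25 and 8.11 in KO replicates 1 to 3, against 8.59, 8.78 and 8.97 in WT replicates 1 to 3 (-0.64, SE 0.15, limma adjusted p = 0.163). The groups did not overlap, but the size depended on how probe sets were combined. The difference was -0.36 with their mean and -0.32 with bright probe sets only, where the interval of -0.72 to 0.08 crossed zero. Its fellow kinases Pdk2 (-0.21, adjusted p = 0.629, no overlap) and Pdk1 (0.18, 0.721) and the phosphatase genes Pdpr (-0.26), Pdp1 (-0.15) and Pdp2 (-0.06) did not pass either. The Pdk2 difference was -0.12 with the mean of its probe sets and -0.12 with bright probe sets only. Without KO replicate 1 the Pdk1 difference was 0.32 (interval 0.012 to 0.63, limma adjusted p = 0.420). With 1 array left out it ran from 0.080 to 0.32. The direction of Pdp1 turned with bright probe sets only (0.025) and that of Pdp2 without WT replicate 3 (0.081).

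Pyruvate enters the matrix through a carrier made of Mpc1 and Mpc2, which the array lists as Brp44l and Brp44. Brp44 was at 6.43, 6.63 and 6.45 in KO replicates 1 to 3, against 6.72, 6.77 and 6.86 in WT replicates 1 to 3. The groups did not overlap, and the difference of -0.28 (SE 0.13, interval -0.58 to 0.02) had a limma adjusted p of 0.510. It was -0.10 with the mean of its probe sets and -0.03 with bright probe sets only. Brp44l overlapped (-0.25, adjusted p = 0.666) and turned positive with the mean of its probe sets (0.082). The lactate exporter Slc16a3 differed by -0.39 (adjusted p = 0.543), and by -0.22 with bright probe sets only. With the mean of its probe sets it differed by -0.32 (interval -0.59 to -0.048), and with 1 array left out by -0.54 to -0.20. In the list of pyruvate entry and alternative fates 3 of 7 tested differences were negative, with a median of 0.02.

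Attachment of lipoate, the swinging arm of E2 and of the E3-binding protein, was covered by 8 tested genes, 6 of them negative, with a median of -0.12. The 3 with the smallest p were A230051G13Rik (0.19), the array's name for the iron-sulfur protein gene Iba57, the iron-sulfur carrier Nfu1 (-0.17) and the lipoyl transferase Lipt2 (-0.19), with limma adjusted p-values of 0.697 to 0.762. Nfu1 differed by -0.28 with the mean of its probe sets (interval -0.55 to -0.014), and by -0.11 without KO replicate 1. For the supply of thiamine pyrophosphate, the cofactor of E1, the thiamine transporter Slc19a2 was tested (0.18, limma adjusted p = 0.712).

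The complexes that share Dld gave 3 negative and 4 positive differences, with a median of 0.02. Gcsh, the lipoylated carrier protein of glycine cleavage, was at 6.07, 7.27 and 6.94 in KO replicates 1 to 3, against 7.04, 7.45 and 7.35 in WT replicates 1 to 3. As with Dld, KO replicate 1 was the lowest array. The difference was -0.52 (SE 0.28, limma adjusted p = 0.558) and -0.17 without that array, -0.13 with the mean of its probe sets and -0.10 with bright probe sets only. Bckdhb, an E1 chain of the branched-chain complex, differed by 0.13, and Dlst, the E2 of the 2-oxoglutarate complex, by -0.06 (0.012 without KO replicate 1). Pdha2, the testis form of E1 alpha, lay below the floor at 4.50 to 5.0 in KO and 4.58 to 4.92 in WT, as did Pdk4, Slc19a3, Dhtkd1 and Gldc by their means.

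**Figure D5:**
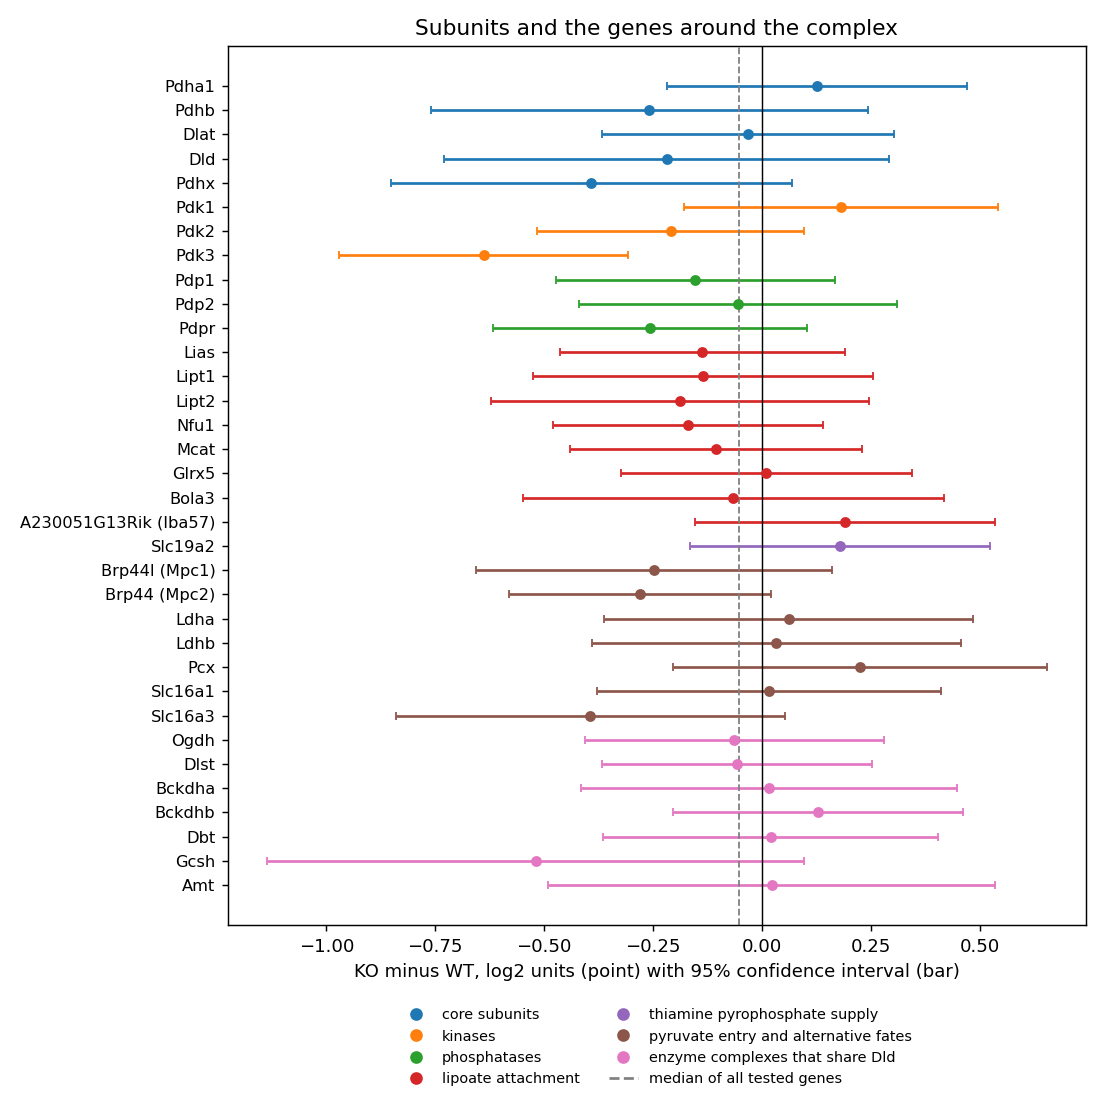
KO minus WT difference in log2 units (x axis, points) with its 95% confidence interval from limma (bars) for the 5 core subunits and the 29 tested genes around the complex, coloured by list. The solid line is zero and the dashed line the median of all tested genes (-0.05). The intervals of all 5 subunits cross zero, and that of Pdk3 does not with the median of probe sets plotted here.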

How the data were processed

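Tregs of 3 KO and 3 WT mice were measured with 1 array each. The deposited intensities are linear, 1 per exon-level probe set, and were summarised by the authors with PLIER in Affymetrix Expression Console 1.4, per the labels and the submitters' processing notes. The sources used here do not give the background correction or the normalization between arrays. Groups came from the sample titles, and each sample is a separate mouse.

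Intensities were transformed as log2(intensity + 16), which understates differences of dim probe sets, with no further normalization. Gene names came from the platform annotation: 233753 probe sets had 1 symbol, 5106 several (0 with a subunit) and 30892 none. Mpc1, Mpc2 and Iba57 were matched through unique synonyms in RefSeq's GRCm38.p6 table. A gene's value is the median of its probe sets, and dim genes (mean below 5.90, the 40th percentile) were not tested.

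Differences are KO minus WT, from two-sided tests in limma 3.58.1 (R 4.3.3; lmFit, eBayes) over all 13891 genes and over all 269751 probe sets, with Benjamini-Hochberg adjustment over each whole table. All p-values are limma's. With 3 arrays a group, the smallest p of an exact permutation test is 0.1. The fit was tested on simulated arrays. Their planted changes exceeded the subunit differences, and no whole array was shifted. They therefore do not show how the fit treats the subunits. The number of arrays limits the precision.

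The members and gene lists were chosen with earlier results of these data known, and some listed genes are not reported here. Named were the 5 subunits, Park7, in each list the genes that passed or else the 3 with the smallest p, per subunit the probe set with the smallest p and the 3 most similar genes (predicted and non-coding names left out). Alternatives were pseudocounts of 1 and 64, other filters, gene summaries, normalizations and variance models, the replicate number as a block, and each array left out in turn.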

Additional observations from a re-analysis of the deposited data

How the results depend on the processing

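No subunit passed in any of 85 fitted values, all 17 settings counted (smallest limma adjusted p 0.378, Pdhx with the replicate block), nor did any of the 16 named genes around the complex (smallest 0.115). Dlat turned positive with the mean of probe sets (0.00078), quantile normalization (0.019) and median centring (0.0031). With 1 array left out the differences ran from 0.032 to 0.22 for Pdha1, -0.44 to -0.0035 for Pdhb, -0.15 to 0.065 for Dlat, -0.37 to 0.058 for Dld and -0.57 to -0.16 for Pdhx, and the positive values of Dlat and Dld came without KO replicate 1. Pdp1 turned with bright probe sets (0.025) and Brp44l with the mean of probe sets (0.082); Dlst ran from -0.14 to 0.012 and Pdp2 from -0.17 to 0.081 with 1 array left out. The cause of these turns was not tested.

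The count of 38 passing genes was 60 with the mean of probe sets and 67 with the replicate block, and 4 to 37 with 1 array left out (4 without WT replicate 1 or 2, 7 without WT replicate 3, 11 without KO replicate 3). The count of 3 passing probe sets was 79 and 8 with pseudocounts of 1 and 64, 15 over bright probe sets, 7 with quantile normalization, 10 with median centring, 0 with the replicate block (20023 at an unadjusted p of 0.05) and 0 to 2 with 1 array left out (17501 to 21083 at an unadjusted p of 0.05). Deviations of same-numbered KO and WT arrays correlated across genes at 0.15, 0.17 and 0.010. Of 6 arrays, 4 correlated best with their own number. These values do not settle whether the numbers mark pairs, and the main fit did not take them as pairs. The block moved no subunit or named gene past the threshold. With it the limma intervals of Pdhx (-0.77 to -0.012) and Gcsh (-0.92 to -0.12) lay below zero, where those of the main fit crossed it. With 3 arrays a group, the main fit's intervals around the subunits still allow ratios between 0.554 and 1.39.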

Other observations

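E1 is built from equal numbers of alpha and beta chains, so the values of Pdha1 were also set against those of Pdhb within each array, a contrast chosen after the values were seen and given with no test. The log2 value of Pdha1 minus that of Pdhb was -0.09, -0.69 and -0.47 in KO replicates 1 to 3, against -0.87, -0.67 and -0.86 in WT replicates 1 to 3. KO replicates 1 and 3 lay above the WT range and KO replicate 2 inside it. The mean was -0.42 ± 0.30 in KO and -0.80 ± 0.11 in WT (SD, n = 3 each), a difference of 0.38, and 0.22 without KO replicate 1. Absolute levels of the chains cannot be read from it, since probe sets of different genes are not on one scale.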
